A study of Homo sapiens with 7 samples.

Results

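The genes described here are 8 chaperone and co-chaperone genes, HSPA8, HSP90AB1, HSP90AA1, HSPD1, HSPE1, HSPH1, PTGES3 and PFDN6, seen through the RNA contacts of eIF3a. eIF3a is a subunit of eIF3, a large initiation factor that acts as the small ribosomal subunit is loaded onto an mRNA. Members were the listed eIF3a intervals that overlapped a window around each gene on the gene's own strand (hg19). They came to 15 of 4013 listed intervals. Intervals that repeat the same coverage profile at 1 place were counted as 1 read cluster, which left 13 clusters of 3566 on the primary chromosomes (0.365%). All 8 genes had at least 1 cluster, so 0 genes were without rows. The genes were chosen with earlier results of these data known, and the share of all genes with a cluster was not counted here. HSPA8, HSP90AB1, HSPD1, HSPE1 and HSPH1 had 2 clusters each, and HSP90AA1, PTGES3 and PFDN6 had 1 each.

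The eIF3a data came from 2 samples of HEK293T, a human embryonic kidney line with the large T antigen of SV40. The labels give 100 mM 4-thiouridine for 8 h, ultraviolet light of 354 nm and immunoprecipitation with an antibody to eIF3a, and they name no heat shock for these samples. The dose is printed as labelled, but doses of 4-thiouridine are usually micromolar, and whether its unit is right is unknown. In this method, PAR-iCLIP, 4-thiouridine enters new RNA, the light bonds it to a protein in contact with it, and the bound fragments are sequenced. The other 5 samples of the series, m6A libraries after heat shock or from control cells, were not analysed here. The eIF3a data used here are 1 list that names no replicate and does not say whether it holds reads of both samples, so no value below has a replicate error and no group was compared with another. Intervals given with counts cover counting error only. The number of reads at a gene also depends on how much of its mRNA a cell holds, which was not measured in the values used here, so a read count is not a strength of binding.

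Chaperones help other proteins to fold. HSP70 proteins bind short exposed stretches of a chain in a cycle driven by ATP, and pass some clients on to HSP90, which completes the folding of kinases, hormone receptors and many others. Mitochondria have a barrel-shaped chaperonin of HSP60 with a lid of HSP10, and prefoldin carries new actin and tubulin to the chaperonin of the cytosol. These genes are called constitutive because unstressed cells already make much of their protein. Several of them, HSP90AA1 and HSPH1 among them, are also known to rise with heat through the transcription factor HSF1. The label could not be checked against expression, since the list holds eIF3a contacts alone.

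HSF1 binds heat shock elements, repeats of the unit GAA in alternating directions, and the promoters of these genes were searched for such letters. In RefSeq's promoter table (GRCh38.p14), all 8 genes were matched by symbol, with 13 annotated starts. The motif of 3 alternating units was searched as GAANNTTCNNGAA and as its other strand, TTCNNGAANNTTC, in the 250 bases before each start. It was found at 4 of the 13 starts, in HSPA8, HSP90AB1, HSP90AA1 and HSPD1, and at 155 of the 35116 starts in the whole table (0.441%). The first match of each gene is shown in capitals, 5′ to 3′ on the gene's strand. Where matches overlapped, as in HSPD1, the capitals cover both.
HSPA8: gcgagcttGAAAGTTCCAGAAcgctgcggt
HSP90AB1: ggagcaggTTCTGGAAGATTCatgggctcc
HSP90AA1: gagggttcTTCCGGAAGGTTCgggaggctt
HSPD1: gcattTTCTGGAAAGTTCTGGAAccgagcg
The capitals lay 230 to 218 bases before the start in HSPA8, 165 to 153 in HSP90AB1, 88 to 76 in HSP90AA1 and 245 to 228 in HSPD1. HSP90AB1 has 3 annotated starts, and HSP90AA1 and HSPD1 have 2 each. In each of these genes 1 start had the motif. HSPE1, HSPH1, PTGES3 and PFDN6 had no match of 3 units in these windows. The shorter motif of 2 units, GAANNTTC or TTCNNGAA, stood at 6 of the 13 starts, which added both starts of PFDN6, and at 11.6% of all starts. A match is a stretch of letters and not a measured site of HSF1. Nor does a missing match show that a gene lacks a site, and HSPH1, named above as rising with heat, had no match of 3 units.

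The chaperone clusters carried many more reads than a typical cluster of the list. The list gives each cluster's coverage as whole reads, and the number of reads was recovered by splitting each profile exactly into pieces of 25 nt. The 13 clusters held 472 of 38419 reads, or 1.23% (95% Wilson interval 1.12 to 1.34). Their median was 34 reads, against 6 over all clusters. All 13 had more reads than the median cluster, as did 48.6% of all clusters. At 30 or more reads stood 7 of the 13, against 6.98% of the list. The score, which is the highest coverage in a cluster, was 12 or more in 10 of the 13 and in 8.61% of the list. Their median score was 13 and that of the list 5. Member clusters were also long, 79 to 318 nt with a median of 141 nt, against 61 nt over the list. Reads, score and length are not independent measures, and length was not compared among clusters of like read number. The clusters of lowest score were cluster 1 of HSPE1 with 4, cluster 2 of HSPH1 with 6 and PFDN6 with 7.

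**Figure D1:**
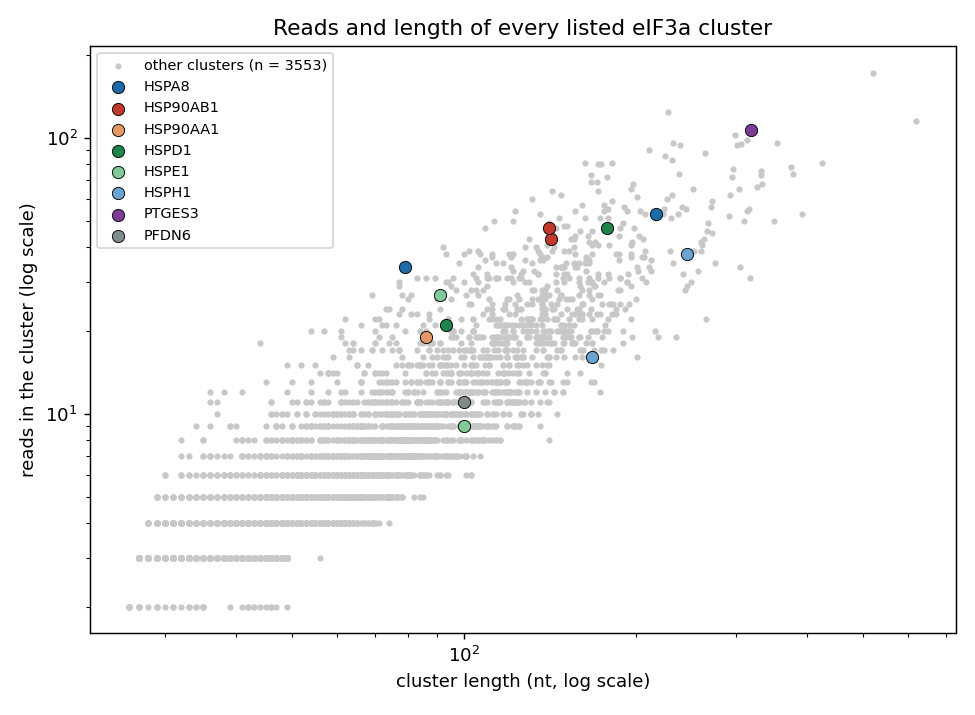
Number of reads (vertical, log scale) against cluster length in nt (horizontal, log scale) for all 3566 clusters on the primary chromosomes. Each grey point is 1 of the 3553 other clusters and each coloured point 1 of the 13 chaperone clusters, which range from HSPE1 with 9 reads over 100 nt to PTGES3 with 107 reads over 318 nt.

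HSPA8 encodes HSC70, the HSP70 protein that cells make without stress. Its upstream cluster, at chr11:122932772-122932848 on the minus strand, held 34 reads over 79 nt and scored 16. Coverage there rose at once from the 5′ end, with 10 read starts in the 10 nt from base 3. This was the densest of the 13 clusters, with 43.0 reads per 100 nt, above 99.6% of all clusters. Neighbouring read starts lay 1 nt apart in 24 of its 33 gaps. The second HSPA8 cluster was listed at chr11:122932033-122932037, 734 nt downstream. It held 53 reads over 217 nt, more than the first, but scored only 12. Its coverage had 2 summits, 12 reads at base 75 and 11 at base 162, with a low of 5 between them. Only 5 of its 217 nt were listed, so where the other bases lie on the chromosome is unknown. Joined as 1 region, as clusters at most 1000 nt apart on a strand were, the HSPA8 pair held 87 reads, and 27 of the list's 2877 regions held more.

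HSPH1 encodes an HSP110 protein, a relative of HSP70 that releases its nucleotide. Its clusters were long, and the second was thinly covered. The upstream one, at chr13:31735830-31736074 on the minus strand, held 38 reads over 246 nt, with a summit of 12 near base 152. The downstream one, at chr13:31735720-31735780, lay 49 nt away and held 16 reads over 168 nt, with a score of 6. Of its length, 107 nt were not listed. Densities were 15.4 and 9.52 reads per 100 nt, against a median of 10.7 over all clusters. The first cluster was longer than 98.7% of all clusters.

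HSP90AB1 encodes HSP90β, the HSP90 isoform that is steadily made. Its first cluster, at chr6:44214807-44214932 on the plus strand, reached a score of 20, the highest among the members, where the list's highest was 24. It held 43 reads over 142 nt. The summit stood at base 48, after a stretch of 10 starts in the 10 nt from base 26. The second cluster was listed at chr6:44216363-44216366, 1430 nt downstream, with 47 reads over 141 nt and a score of 17. It had a lower summit of 11 at base 25 and a higher one of 17 at base 110, with 4 reads at the lowest point between. Only 4 of its 141 nt were listed. The clusters of HSP90AB1 were alike in reads and length, 30.3 and 33.3 reads per 100 nt.

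HSP90AA1 encodes HSP90α, the heat-responsive isoform. It had a single cluster, at chr14:102553324-102553408 on the minus strand, with 19 reads over 86 nt. The reads were stacked on 1 summit, where 16 of the 19 covered the same base. That share, 84.2%, was higher than in 96.3% of the other 410 clusters with 15 to 25 reads, whose median was 45.0%. Those clusters were not matched to HSP90AA1 in length. The cluster lay 52678 nt from the 5′ end of a window of 59012 nt. HSP90AA1 has a distant upstream start, used by a longer isoform, and an internal one, used by the common isoform. The cluster was not assigned to either here, because no annotation of hg19 was used. Between the paralogs, HSP90AB1 held 90 of 109 reads, 82.6% (95% Wilson interval 74.4 to 88.5). Its clusters covered 283 nt, and that of HSP90AA1 covered 86 nt. Their densities were closer, 31.8 reads per 100 nt of cluster (95% Poisson interval 25.6 to 39.1) for HSP90AB1 and 22.1 (13.3 to 34.5) for HSP90AA1, with intervals that overlap.

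PTGES3 encodes p23, the co-chaperone that holds HSP90 in its closed, client-bound state. It had the most reads of the 8 genes, all in 1 cluster at chr12:57081782-57082098 on the minus strand. The cluster held 107 reads over 318 nt, and only 3 clusters of the whole list held more. Its score was 15, below the highest scores of HSPA8, HSP90AB1, HSP90AA1 and HSPD1, which had fewer reads. Coverage was spread over 4 summits, 15 at base 68, 11 at base 146, 15 at base 256 and 11 at base 292. Coverage fell to 3, 4 and 5 reads between them and never to 0. No more than 14.0% of its reads covered any 1 base. In the whole list, 13 clusters had 4 or more summits. The interval was listed in full, 317 of 318 nt, and began 102 nt inside the window's 5′ end.

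**Figure D2:**
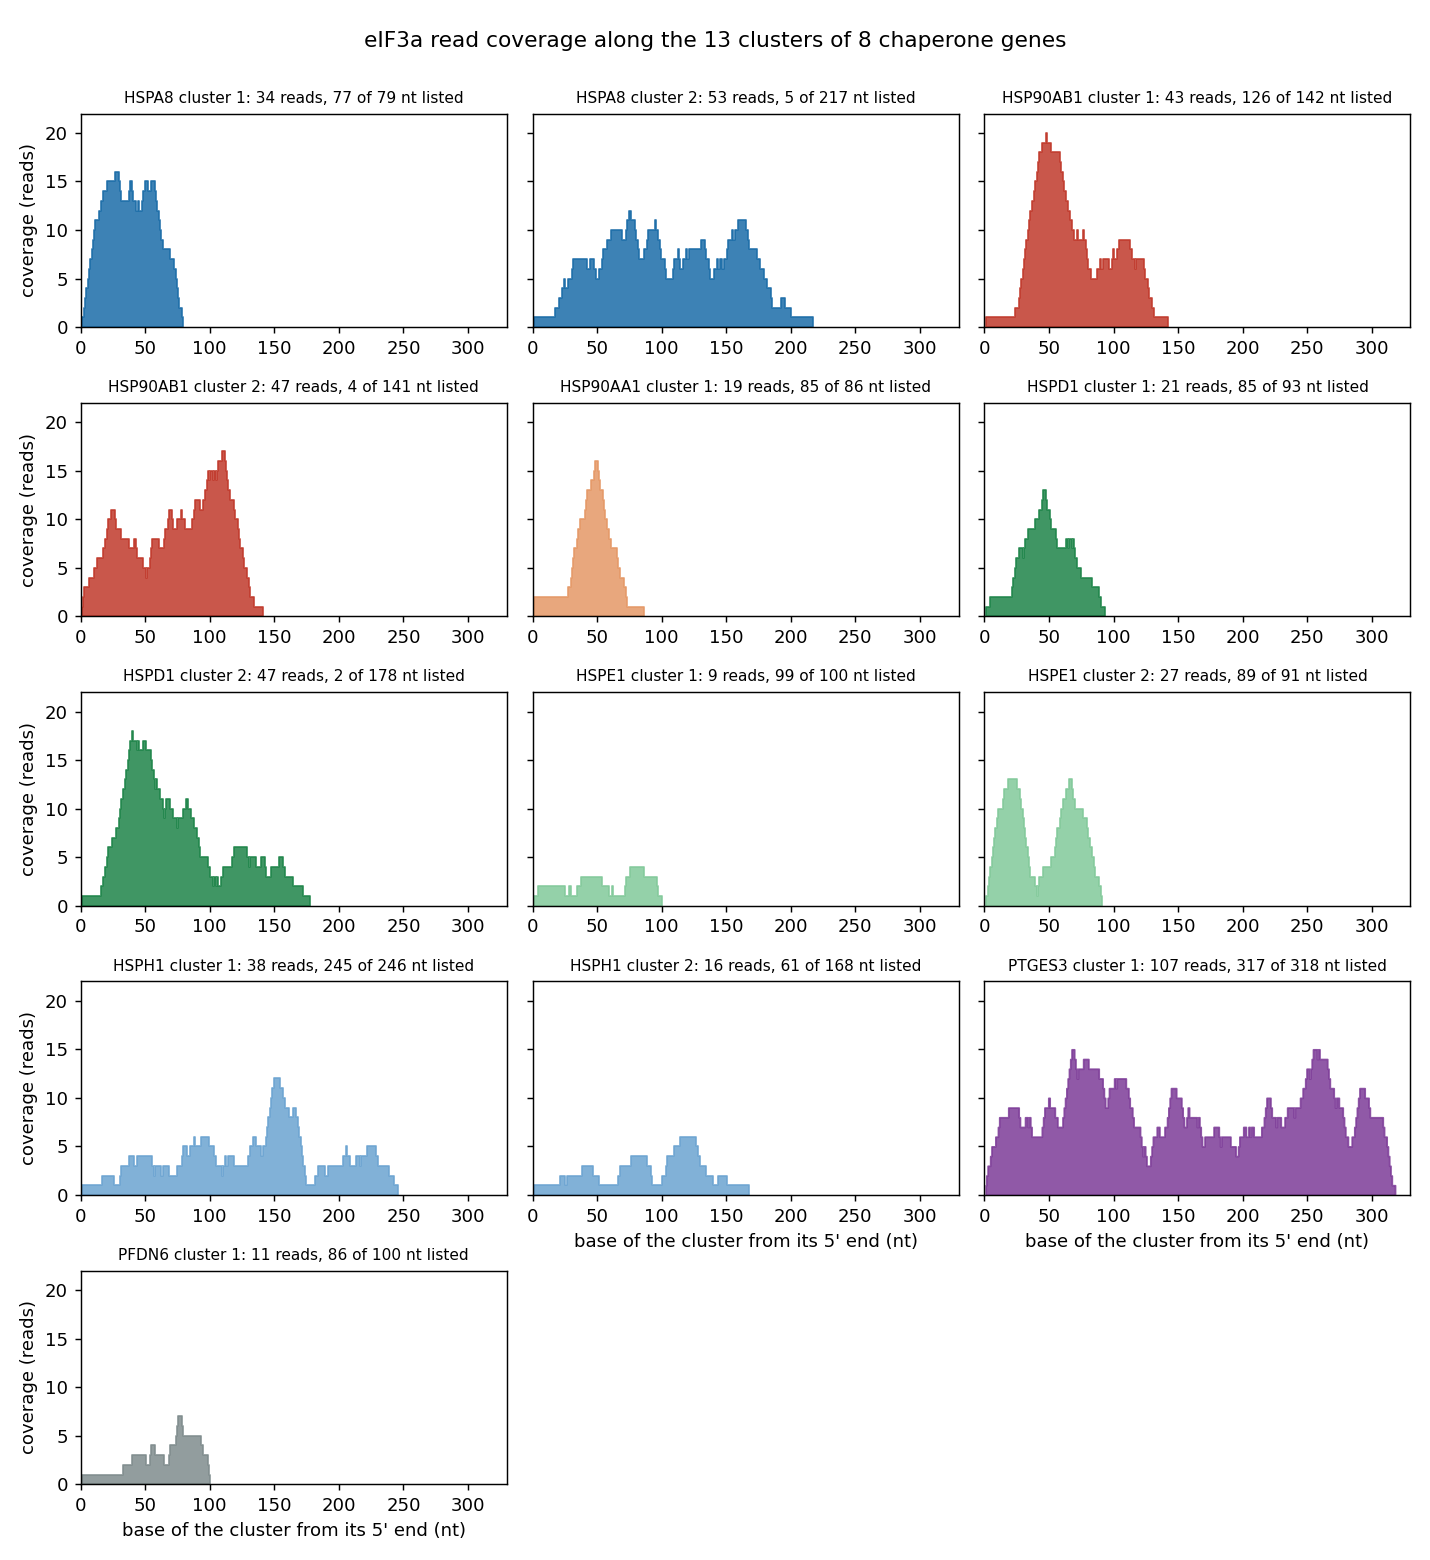
Read coverage (vertical, reads) along each of the 13 clusters, by base from the cluster's 5′ end (horizontal, nt), with minus-strand clusters turned to read 5′ to 3′. HSP90AA1 shows 1 summit of 16 reads, HSPE1 cluster 2 shows a pair of 13 with a low of 1 between them, and PTGES3 shows 4 summits of 11 to 15 over 318 nt.

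HSPD1 and HSPE1 encode the mitochondrial chaperonin HSP60 and its lid HSP10, and lie head to head. HSPD1 had a cluster at chr2:198364506-198364590 on the minus strand, with 21 reads over 93 nt and a score of 13. A further HSPD1 cluster was listed at chr2:198363573-198363574, 931 nt downstream, with 47 reads over 178 nt and a score of 18. Its main summit was at base 40. Only 2 of its 178 nt were listed. On the plus strand, HSPE1 began with a sparse cluster at chr2:198364848-198364946, 9 reads over 100 nt with a score of 4, the fewest reads of any member cluster. Its second cluster, at chr2:198365072-198365160, lay 125 nt further and held 27 reads over 91 nt. These reads formed 2 equal summits of 13, at bases 22 and 66, with 1 read at the lowest point between them.

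The nearest listed ends of HSPD1 and HSPE1 on opposite strands were 257 nt apart. Measured to the richer HSPE1 cluster the gap was 481 nt. The sparse HSPE1 cluster also lay inside the HSPD1 window, on the strand opposite to HSPD1, and was counted for HSPE1 by its strand. RefSeq lists HSPE1-MOB4, a read-through gene that starts with HSPE1, beside it, and reads of the pair cannot be told apart in this list. HSPD1 held 68 reads and HSPE1 36.

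PFDN6 encodes a subunit of prefoldin. Its cluster, at chr6:33257548-33257633 on the plus strand, held 11 reads over 100 nt, with a score of 7. It was the only member with copies in the list. The same profile appeared on 4 alternate versions of chromosome 6, where the gene lies beside the major histocompatibility complex, and on no other primary chromosome. Its reads are counted once here. No other member had its whole profile at another locus, and in the 10 clusters with enough reads to search, 0 shared a stretch of 40 nt with another cluster. Chaperone genes have many processed copies in the genome, and this search sees copies only where the list holds them.

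Ordered by reads per 100 nt of cluster, the genes were PTGES3, HSP90AB1, HSPA8, HSPD1, HSP90AA1, HSPE1, HSPH1 and PFDN6. Values fell from 33.6 (95% Poisson interval 27.6 to 40.7) in PTGES3 to 13 (9.8 to 17.0) in HSPH1 and 11 (5.49 to 19.7) in PFDN6. Each gene's interval overlapped that of the next in the order, and no difference between genes was tested. HSPA8 stood at 29.4 (23.5 to 36.3), HSPD1 at 25.1 (19.5 to 31.8) and HSPE1 at 18.8 (13.2 to 26.1). The intervals of the first 4 genes lay wholly above that of HSPH1. Every occupied start held 1 read in all 13 clusters, 472 starts in all. Reads and density are therefore bounded from above by the number of bases, which neither the Poisson nor the Wilson intervals take into account.

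**Figure D3:**
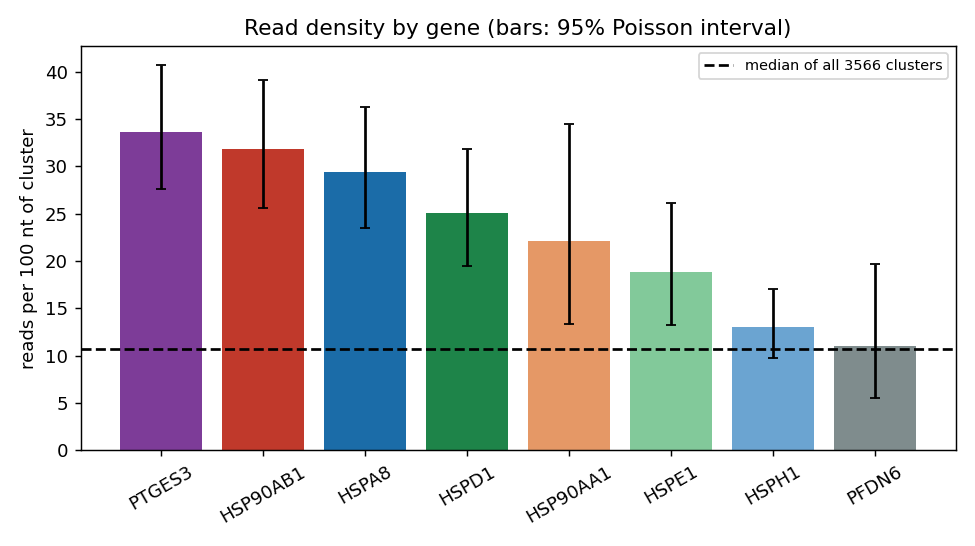
Reads per 100 nt of cluster (vertical) for each gene, with its clusters summed. Error bars are 95% Poisson intervals, counting error only, and the dashed line is the median of all clusters, 10.7, with PTGES3 at 33.6 and PFDN6 at 11.

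HSPA8, HSP90AB1 and HSPD1 shared an arrangement that the rule did not use. Each had an upstream cluster listed over 77 to 126 nt, and a downstream cluster 734, 1430 or 931 nt away of which 5 nt or less were listed. The cut of 5 nt was chosen after seeing the data and equals the listed length in HSPA8, the longest of the 3. It therefore takes in all 3 by construction. Listed intervals this short occurred in 3 of the 13 member clusters and in 2.13% of the list, 76 clusters. Of those 76, 22 had a cluster upstream on the same strand within 2000 nt. The short-listed chaperone clusters held 53, 47 and 47 reads, where the median over all 13 member clusters was 34. The other 73 short-listed clusters had a median of 5 reads, and the richest of them held 57. In all 3 genes the downstream cluster held more reads than the upstream one, but in HSPA8 and HSPD1 it was also longer. Per 100 nt it held fewer in HSPA8, 24.4 against 43.0. It held slightly more in HSP90AB1, 33.3 against 30.3, and in HSPD1, 26.4 against 22.6. Over the 5 genes with 2 clusters, the downstream one held more reads in 4, whatever its length, HSPH1 being the exception. Among 732 neighbouring pairs of the whole list within 2000 nt on a strand, it held more in 330 (45.1%) and fewer in 327. The 3 short-listed clusters held 147 of the 472 member reads (31.1%), and most of their bases have no listed position. Without them, 325 reads in 10 clusters remained.

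**Figure D4:**
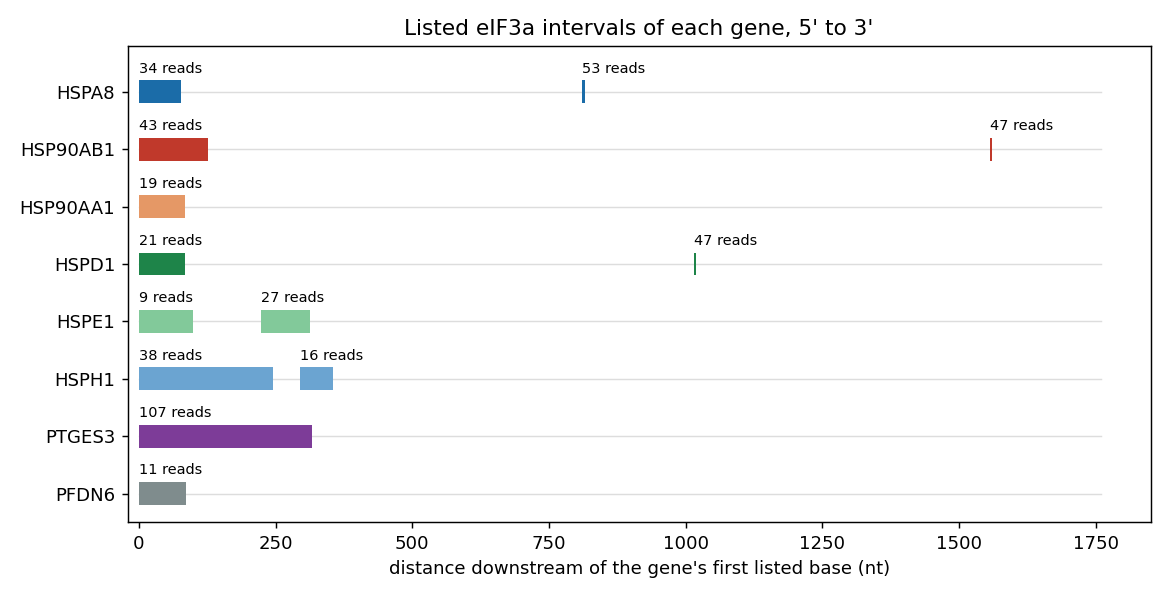
Listed intervals of each gene as bars, by distance in nt downstream of the gene's first listed base, with the reads of each cluster above its bar. In HSPA8, HSP90AB1 and HSPD1 the second bar is a sliver of 5, 4 and 2 nt that stands for 53, 47 and 47 reads.

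How the list was filtered is unknown, and whether it was limited or trimmed to certain parts of transcripts, which would bear on the position and listed length of clusters, was not tested. The first listed base of 12 of the 13 lay 7 to 1901 nt from the window's 5′ end. Windows spanned 1621 to 59012 nt, so in the shortest, that of PFDN6, a cluster could lie no farther. Window ends are not annotated starts, and in HSPA8 the nearest listed interval began 1090 nt inside. Within 1000 nt of the windows, the only cluster that belonged to no member was at chr14:102606242-102606260, on the plus strand 155 nt beyond the 5′ end of the HSP90AA1 window. It held 3 reads. RefSeq places WDR20 next to HSP90AA1 on that side, and the cluster was not assigned to a gene here.

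The clusters differed in shape. Of the 13 clusters, 4 had 2 or more summits (each standing at least 5 reads above the lows beside it), against 6.65% of the list. They were HSPA8 cluster 2, HSP90AB1 cluster 2, HSPE1 cluster 2 and PTGES3. Clusters of few reads cannot show 2 such summits. Among clusters with 10 or more reads the count was 4 of 12 in the members and 237 of 1161 (20.4%) in the list. This cut does not match the members to the list in reads or length, and the 4 clusters held 27 to 107 reads. Of all 13 member clusters, 8 had 1 summit, and HSPE1 cluster 1 had 0 by this measure. The share of reads over the highest base ran from 14.0% in PTGES3 to 84.2% in HSP90AA1. Among the 1161 clusters of the list with 10 or more reads its median was 46.2%, with quartiles of 36.4 and 60.0. With 1 read per start, at most 25 reads of 25 nt can cover 1 base of a member cluster. A cluster of many reads, such as PTGES3 with 107, therefore cannot reach a high share, whatever its shape. Neighbouring starts were 1 nt apart in 212 of 459 gaps in the members (46.2%), and in 38.2% of the gaps in clusters with 10 or more reads. Starts adjoin more often where reads are dense, and these clusters were not matched to the members in density. The member gaps also include HSPE1 cluster 1, which had only 9 reads. Among the members the share of such gaps ran from 12.5% in HSPE1 cluster 1 to 72.7% in HSPA8 cluster 1, the sparse and the dense end.

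Starts of these genes differ in thymine, the base that corresponds to the labelled uridine of RNA. In RefSeq's table (GRCh38.p14), the first 50 bases after the start held 4 to 21 thymines over the 13 starts, with a median of 12 against 10 over all starts. HSPA8 had the most, 21, a number reached or passed by 2.14% of all starts. The HSPD1 starts had 4 and 7. The letters GGAC, the core of the common m6A motif, searched on the transcribed strand alone, occurred in these 50 bases at 3 of 13 starts, in HSPD1, HSP90AB1 and HSPH1. They occurred at 18.9% of all starts. No m6A value was analysed here for any of them.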

How the data were processed

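The series' 7 samples were grouped from their titles. The eIF3a reads were aligned to hg19 with Bowtie, per the submitters' processing notes. For the cluster caller, its filters and the handling of duplicates and replicates, the sources used here give nothing. The authors deposited 1 list whose signal is the highest coverage of a cluster in reads, without normalization; it equalled the profile's maximum in all 4013 entries. Coordinates are printed counting from 1 and may be off by 1 nt.

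Reads were recovered by splitting each profile into reads of 25 nt, which was exact for all 3113 profiles and was tested on simulated data. Profiles were read in genomic order. In 3 overlapping minus-strand pairs, all at 1 locus, all 42 starts then coincided, against 7 in reverse, and in 4 plus-strand pairs 38 of 38 did, against 10. Depth of the libraries is unknown. Members, lists and summaries were chosen with earlier results of these data known, and named genes are all 8 members with all clusters. A list of other chaperone genes was not analysed here, since an hg19 annotation was not used. Shares carry Wilson intervals and densities exact Poisson intervals, both at 95%, and no test was run. Python 3.11.15, numpy 2.4.6, pandas 2.3.3, scipy 1.17.1 and matplotlib 3.10.9 were used.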

Additional observations from a re-analysis of the deposited data

How the results depend on the processing

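The share of member reads held by PTGES3 was the value that moved: it was 22.7%, 8.88% with scores summed in place of reads, 36.3% with every entry counted as deposited, because the cluster is listed as 2 entries, and 32.9% without the 3 clusters listed over 5 nt or less. The last alternative was chosen after seeing the data. With scores summed, PTGES3 was no longer first: it had 15, and HSP90AB1 had 37, the most of any member. There were 13 alternatives for the number of clusters (10 to 15), of reads (325 to 590) and the median percentile of the clusters. All stayed within 1.5 times of the main value. The percentile was 94.8 by reads, 94.0 with distinct profiles as the reference and 93.0 when ranked by score. It could not have risen 1.5 times, so for the percentile that limit could only catch a fall. Counting reads only where they start in the listed interval was not run, since the place of a shortened interval in its profile is unknown. No paired analysis was possible because the eIF3a list names no replicate and no m6A values were used. Small clusters limit what can be said of PFDN6 and of HSPE1 cluster 1, with 11 and 9 reads.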
